A study of Mus musculus with 4 samples.

Results

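The variable (V) segments of the T-cell receptor genes were examined for occupancy by CTCF, a zinc-finger protein that binds DNA and anchors chromatin loops together with cohesin. The members were all genes that the GENCODE M21 annotation of the mouse genome (mm10, GRCm38) types as T-cell receptor V genes: 144 of 53843 genes. Of these, 115 lay in the alpha-delta locus on chromosome 14, 22 in the beta locus on chromosome 6 and 7 in the gamma locus on chromosome 13. A V segment was called occupied when the summit of a peak lay within 1 kb of its gene body. All summits within the 3 loci and 50 kb on either side were described as well, 103 of the 90278 in the list.

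CTCF was mapped by chromatin immunoprecipitation and sequencing in hippocampal tissue of B6CASTF1/J males aged 2 months, that is, hybrid offspring with one C57BL/6J and one CAST/EiJ parent. There were 2 biological replicates with 2 technical libraries apiece, 4 libraries in all. Each replicate was a pool of 7 tissue samples with fragments of 200 to 600 bp. Both pools carry the same donor entry in the labels, and the labels do not say whether different animals went into them. There was no treated or untreated group. The input control was not used here, the read depth is unknown, and CTCF occupancy does not measure expression, so the labelled tissue could not be checked with marker genes. The reference genome is that of C57BL/6J, and whether the CAST/EiJ copies of the loci carry the same segments was not tested.

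T cells assemble their receptor genes from V, diversity (D) and joining (J) segments, which the RAG1 and RAG2 recombinase cuts at recombination signals. Each signal holds a heptamer and a nonamer separated by a spacer, and in V segments it follows the coding end. Alpha and beta chains form one kind of receptor and gamma and delta chains the other. The delta genes lie inside the alpha locus, between the alpha V and J segments. V segments are spread over long distances from the D and J segments, and chromatin looping at CTCF sites is one of the known ways in which distant segments are brought near each other in lymphocytes. Hippocampal cells do not rearrange these genes.

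Sequences of some sites of these loci are given before the counts. The first is the strongest summit near any V segment, that of Trav17, with 100 bases on either side (chr14:53806303-53806503, plus strand). Capitals mark the match to the core CTCF consensus, a motif of 12 letters, with at most 1 mismatch. The sequences are those of the RefSeq GRCm38.p6 assembly.

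Trav17: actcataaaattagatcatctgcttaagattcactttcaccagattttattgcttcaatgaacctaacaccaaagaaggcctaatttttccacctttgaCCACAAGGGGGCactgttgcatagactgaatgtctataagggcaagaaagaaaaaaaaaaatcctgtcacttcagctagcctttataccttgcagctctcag

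The next lines pair occupied V segments with a copy that carried the same core but had no peak. Each gives 60 bases around the core in the direction of the V segment. Trav3-3 (chr14:53665815-53665874), Trav6n-6 (chr14:53132545-53132604) and Trav12-1 (chr14:53538058-53538117) were occupied. Trav3d-3 (chr14:52972342-52972401), Trav6d-6 (chr14:52821767-52821826) and Trav12d-1 (chr14:52844349-52844408) were not.

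Trav3-3: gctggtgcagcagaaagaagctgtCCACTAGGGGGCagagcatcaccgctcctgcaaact
Trav3d-3: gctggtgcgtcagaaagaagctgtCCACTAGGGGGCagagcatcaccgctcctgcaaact
Trav6n-6: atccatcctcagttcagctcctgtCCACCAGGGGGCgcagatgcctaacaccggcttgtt
Trav6d-6: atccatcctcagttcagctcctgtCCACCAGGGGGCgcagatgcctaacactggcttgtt
Trav12-1: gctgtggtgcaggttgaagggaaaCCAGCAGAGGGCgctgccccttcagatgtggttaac
Trav12d-1: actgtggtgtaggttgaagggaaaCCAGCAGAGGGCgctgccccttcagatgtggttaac

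In these 60 bases the first pair differed at 2 positions, the second at 1 and the third at 2, and none of the differences lay in the core. The following lines are the sites before Trav10 (chr14:53505547-53505606), which had 3 copies all occupied, before Trdv1 (chr14:53881418-53881477) and before the strongest members of the other loci, Trbv12-1 (chr6:41113029-41113088) and Tcrg-V7 (chr13:19177767-19177826). In Trdv1 and Tcrg-V7 the capitals mark the core of the best-scoring position of a 20-base CTCF matrix, which has 2 mismatches to the consensus in Trdv1 and 3 in Tcrg-V7, so these were not counted as matches.

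Trav10: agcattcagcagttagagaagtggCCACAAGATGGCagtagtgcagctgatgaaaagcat
Trdv1: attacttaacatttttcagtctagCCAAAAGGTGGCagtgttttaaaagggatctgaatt
Trbv12-1: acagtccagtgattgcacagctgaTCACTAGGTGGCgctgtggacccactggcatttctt
Tcrg-V7: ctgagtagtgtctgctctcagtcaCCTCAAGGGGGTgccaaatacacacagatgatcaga

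The last lines are sites on the J and D side of the loci, whose cores lie on the opposite strand to those above and are therefore read from the minus strand. They lie before Traj61 (chr14:54153010-54153069) and before Trbd1 (chr6:41530155-41530214). The recombination signal of Trav17 (chr14:53807116-53807154, plus strand) is shown with its heptamer and nonamer in capitals.

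before Traj61: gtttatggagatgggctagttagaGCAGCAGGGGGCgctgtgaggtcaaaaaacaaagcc
before Trbd1: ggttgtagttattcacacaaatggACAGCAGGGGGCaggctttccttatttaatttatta
Trav17 recombination signal: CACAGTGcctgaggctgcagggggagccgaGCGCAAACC

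CTCF occupied 39 of the 144 V segments, 27.1% (exact 95% interval 20.0% to 35.1%, counting error only). The share was 33 of 115 (28.7%, 20.6% to 37.9%) in the alpha-delta locus, 5 of 22 (22.7%, 7.82% to 45.4%) in the beta locus and 1 of 7 (14.3%, 0.361% to 57.9%) in the gamma locus. These intervals overlapped, and no difference between the loci was tested. Of all other genes, 40.1% had a summit within 1 kb, but their median length was 3557 bp against 535 bp for V segments. Among the 11153 other genes in the length range of the V segments the share was 13.1%, and of windows of 2535 bp on a grid over the genome it was 8.08%.

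Immunoglobulin V segments, the corresponding genes of the B-cell receptor, had a summit within 1 kb in 16 of 218 cases (7.34%, 4.25% to 11.6%). The position differed in count as well. A summit lay in the 500 bp before the start of 36 T-cell receptor V segments (25.0%, 18.2% to 32.9%) and of 0 of the 218 immunoglobulin V segments, which allows up to 1.68%. In the 500 bp after the end the counts were 1 of 144 and 13 of 218. All other genes had a summit in the 500 bp before the start in 8.59% of cases and in the 500 bp after the end in 2.98%. Neighbouring V segments are related in sequence and are not independent, so these shares stand as descriptions.

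The strength of a peak was read from the authors' signal value, a score without a stated scale that serves to rank peaks within the list. The strongest V segment peak was that of Trav17, an alpha V segment, with a signal of 732 on pooled reads, 356 in replicate 1 and 376 in replicate 2. It was stronger than 91.1% of all peaks, and no other V segment peak reached its percentile. Tcrg-V7, a gamma V segment, followed with 669, and its replicates gave 339 and 333. Trav3-4 had 649, with 289 in replicate 1 and 363 in replicate 2. Trbv12-1, a beta V segment, had 631, with replicate values of 311 and 324.

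The next members were weaker. Trav3-3 had a signal of 528 (replicates 258 and 270). Trdv1, a delta V segment, had 518 (263 and 259). Trbv12-2 had 477 (242 and 234) and Trav6n-6 had 445 (229 and 215). Both replicates held a peak at each of these members.

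The 3 Trav10 copies were alike in strength. Trav10 had a signal of 382 (replicates 187 and 197), Trav10d 342 (168 and 176) and Trav10n 334 (157 and 178). The single-copy segments near the delta genes were spread more widely. Trav18 had 366 (162 and 203), Trav19 had 202 (91.0 and 114) and Trav23 had 133 (74.3 and 57.6).

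The weakest occupied members were Trav6d-3 with 48.7 (24.2 and 24.8), Trav7-4 with 55.5 (23.8 and 25.7) and Trav5n-4 with 66.1 (37.0 and 29.7). These 3 were the members lost at the stricter IDR of 0.01. Over the 39 members the signal ran from 48.7 to 732 with a median of 192, against a median of 165 over all peaks, and 20 of the 39 lay above that median.

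**Figure D1:**
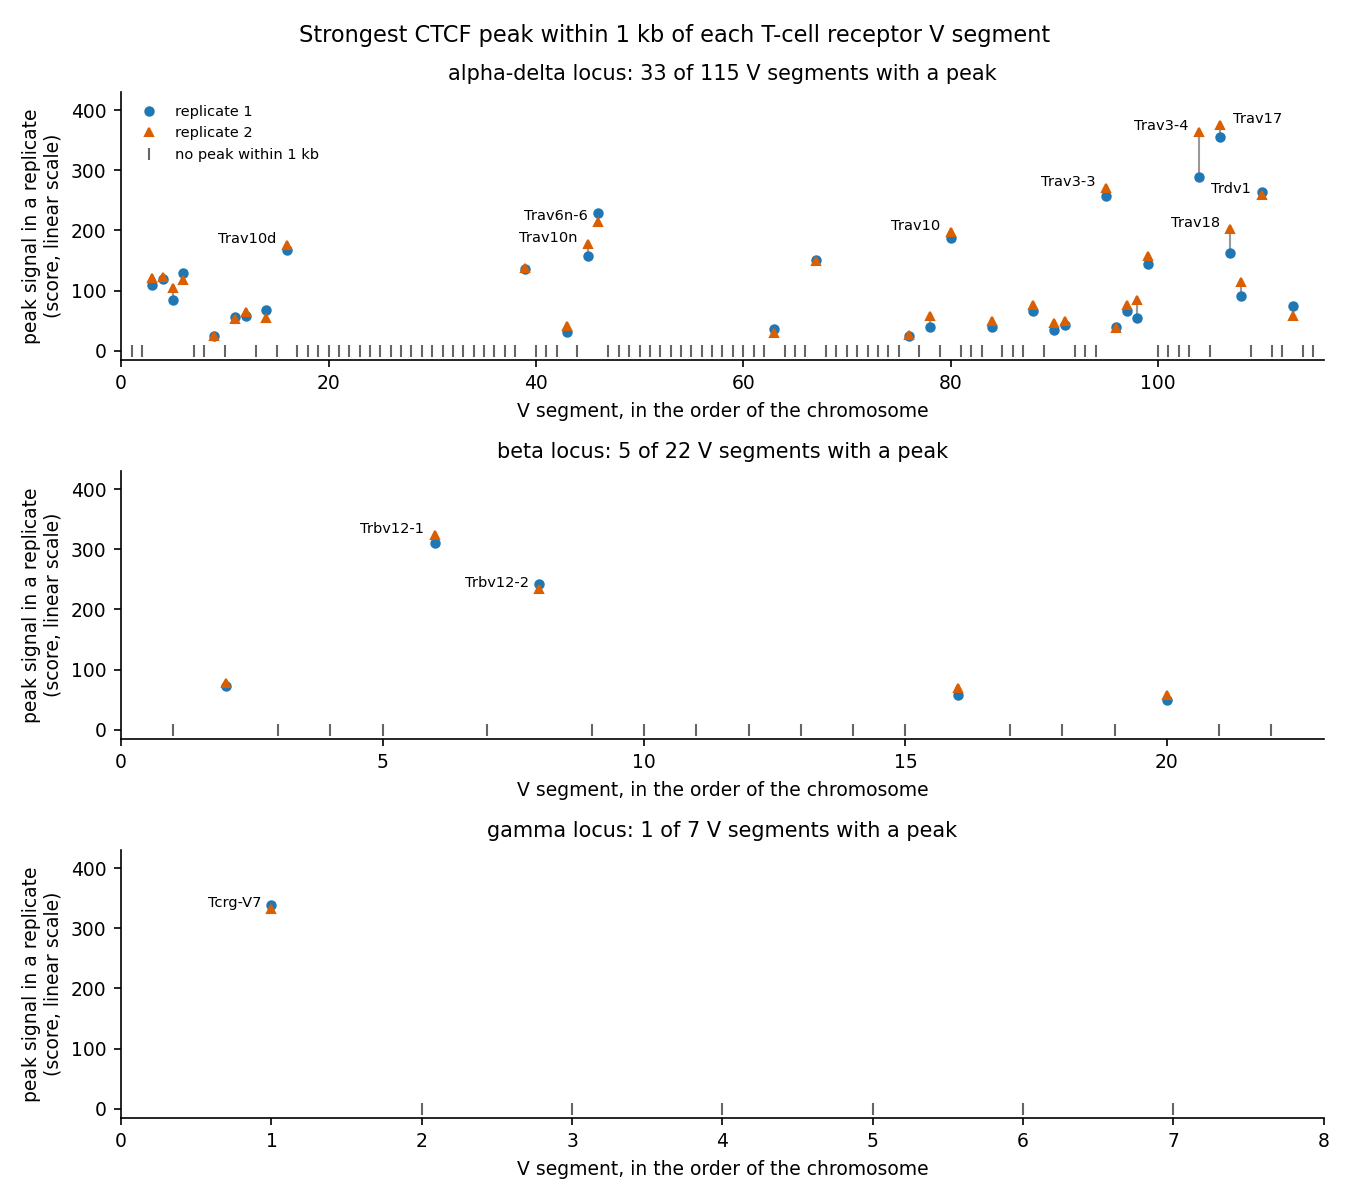
Peak signal in replicate 1 (circles) and replicate 2 (triangles) of the strongest peak within 1 kb of each V segment, in chromosome order, for the alpha-delta, beta and gamma loci; ticks at 0 are V segments without a peak. The highest values are those of Trav17 (356 and 376), and long stretches of the alpha-delta locus hold no occupied V segment.

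The remaining occupied members were all in the alpha-delta or beta locus. Near the start of the alpha-delta locus, Trav3-1 had a signal of 229, Trav5-1 244, Trav6-1 192 and Trav7-1 247. Among the copies marked d and n, Trav8d-2 had 274, Trav8n-2 302, Trav6d-4 108, Trav7d-4 122, Trav7n-4 72.8 and Trav9d-1 123. Further along, Trav9-1 had 98.2, Trav9-2 142, Trav9-4 79.1, Trav5-4 137, Trav4-4-dv10 144 and Trav6-7-dv9 304. The Trav12 segments were weak and close to each other, with 90.1 for Trav12-1, 81.2 for Trav12-2 and 91.6 for Trav12-3. In the beta locus Trbv2 had 154, Trbv20 128 and Trbv29 108.

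Replicate 2 gave the higher value at 28 of the 39 members and at 72.0% of all peaks. After the median ratio of all peaks was subtracted, the log2 ratio of replicate 2 over replicate 1 ran from -0.46 at Trav23 to 0.53 at Trav5-4. The 2 replicates share peak positions by the way the list was made, and 1 value per replicate gives no error for a single member.

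The 105 unoccupied V segments included 10 with a peak in the ranked list, before the IDR threshold. The nearest to the threshold was Trav6-4, with a signal of 65.3 and a score of 530, where 540 corresponds to an IDR of 0.05. The d copy of the same number, Trav6d-4, was occupied, with a signal of 108. By distance, the member just inside 1 kb was Trav4-4-dv10, with a summit 696 bp away, and those just outside were Trbv5 at 1054 bp, Trbv31 at 1106 bp and Trav4-2 at 1192 bp.

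The summits lay before the V segments. The strongest summit lay upstream of the annotated start at 38 of the 39 occupied members and after the end at 1, Trbv29, where it was 421 bp past the end. The upstream distance ran from 51 bp at Trav19 to 696 bp at Trav4-4-dv10, with a median of 174.5 bp. The members farthest from their summit after Trav4-4-dv10 were Trbv2 at 624 bp, Trbv12-2 at 487 bp and Trbv12-1 at 486 bp. The annotated start is that of the coding sequence in some V segments: 50 of the 144 begin with ATG, so a distance from the start of transcription is not implied.

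A further summit was present at Trav7-1 and Trav6-7-dv9. That of Trav7-1 had a signal of 50.5 at 96 bp before its start, and its replicate 2 value of 117 is that of the stronger summit beside it, so replicate 2 showed no separate peak there. That of Trav6-7-dv9 had 93.4 and lay inside its body.

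**Figure D2:**
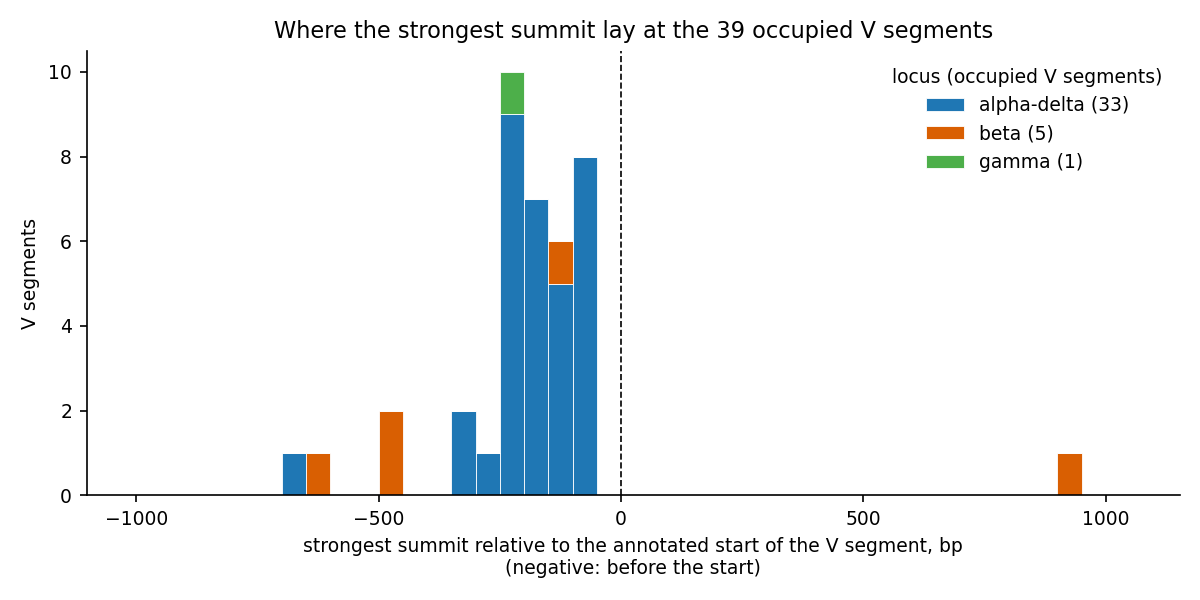
Distance of the strongest summit from the annotated start of the V segment, in bins of 50 bp, for the 39 occupied members by locus; negative values lie before the start. The alpha-delta members lie between 51 and 696 bp before the start, and 1 beta member, Trbv29, lies after it.

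A recombination signal was found after 128 of the 144 V segments by a search for the heptamer CACAGTG (1 mismatch allowed in its last 4 letters) in the first 30 bases after the segment and the nonamer ACAAAAACC, with a spacer of 22 to 24 bases. The heptamer decided whether a signal was counted, and the nonamer served to choose among spacers and had up to 4 mismatches. By locus a signal was found after 112 of 115 alpha-delta, 14 of 22 beta and 2 of 7 gamma segments. The distances below therefore describe mainly alpha-delta members, with only 827 bp in the beta and 703 bp in the gamma locus. The heptamer was exact at 105 and the spacer was 23 bases at 121. At the occupied members with a signal, the heptamer lay at a median of 717 bp from the summit, on the far side of the V segment (range 566 to 1773 bp). The longest distance belonged to Trav6d-3, whose annotated body of 1621 bp is one of the longest.

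Occupancy differed among V families. Trav10 had 3 of 3 members occupied, Trav3 had 3 of 5, Trav5 3 of 4 and Trav8 2 of 4. Trav6 had 5 of 15, Trav7 4 of 13, Trav9 4 of 10, Trav12 3 of 9 and Trav4 1 of 7. None was occupied among the 11 members of Trav13, the 9 of Trav14, the 6 of Trav15 or the 3 of Trav16. The share over all V segments was 27.1%. In these last families 0 members had a core match in the 500 bp before the start. All members of Trav10 (3), Trav3 (5), Trav9 (10) and Trav12 (9) had one, and 0 of the 4 of Trav5. Both Trbv12 members were occupied and none of the 3 Trbv13 members.

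The letters d and n in alpha segment names mark duplicated copies. Of the d copies 6 of 34 were occupied (17.6%, 6.76% to 34.5%) and of the n copies 5 of 28 (17.9%, 6.06% to 36.9%). The other alpha-delta segments were occupied in 22 of 53 cases (41.5%, 28.1% to 55.9%). The groups follow the names alone. The unoccupied C920008G01Rik, which lies between Trav6d-7 and Trav13d-3, was therefore counted with the others. It matched Trav7n-6 at 100% of 201 bases around the motif, and 88.9% of its upstream words were repeated. A median of 92.0% of the 50-base words in the 500 bp before d copies recurred elsewhere in the genome, 94.0% before n copies and 26.6% before the others. The 3 groups thus differed in sequence repetition as well as in occupancy, and the part of the repetition in the difference was not tested.

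A match to the core consensus, with at most 1 mismatch on either strand, was found in the 500 bp before 57 of the 144 V segments (39.6%). By locus these were 55 of 115 alpha-delta, 2 of 22 beta and 0 of 7 gamma segments. Of all other genes, 5.63% held a match in the same window. The match was present before 26 of the 39 occupied members and before 31 of the 105 unoccupied ones. Of the 57 V segments with a match, 26 (45.6%, 32.4% to 59.3%) were occupied, and of the 87 without one 13 (14.9%, 8.20% to 24.2%).

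The counts with a match divided further by repetition. Where under 50% of the upstream words recurred in the genome, 21 of 26 V segments with a match were occupied (80.8%, 60.6% to 93.4%). Where 50% or more but not all of the words recurred it was 5 of 15 (33.3%, 11.8% to 61.6%). Where all of them recurred it was 0 of 16, which allows up to 20.6%. Without a match the counts were 10 of 53, 3 of 22 and 0 of 12.

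All 5 of the unoccupied V segments with a match and under 50% of repeated words had a peak in the ranked list below the threshold: Trav6-2, Trav7d-3, Trav7-3, Trav6-4 and Trbv30. None of the 28 V segments with only repeated words had a peak even in the ranked list. The median number of times their words occurred in the genome was 2 at 24 of them and 3 at the others. The 16 with a match were Trav6d-6, Trav12d-1, Trav9d-2, Trav12d-2, Trav9d-3, Trav12d-3, Trav9d-4, Trav6d-7, Trav12n-1, Trav9n-2, Trav12n-2, Trav9n-3, Trav12n-3, Trav9n-4, Trav6n-7 and Trav6-6. How reads that fit several places were treated is not given in the sources used here, so a lack of CTCF and a lack of placed reads cannot be told apart at these segments.

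**Figure D3:**
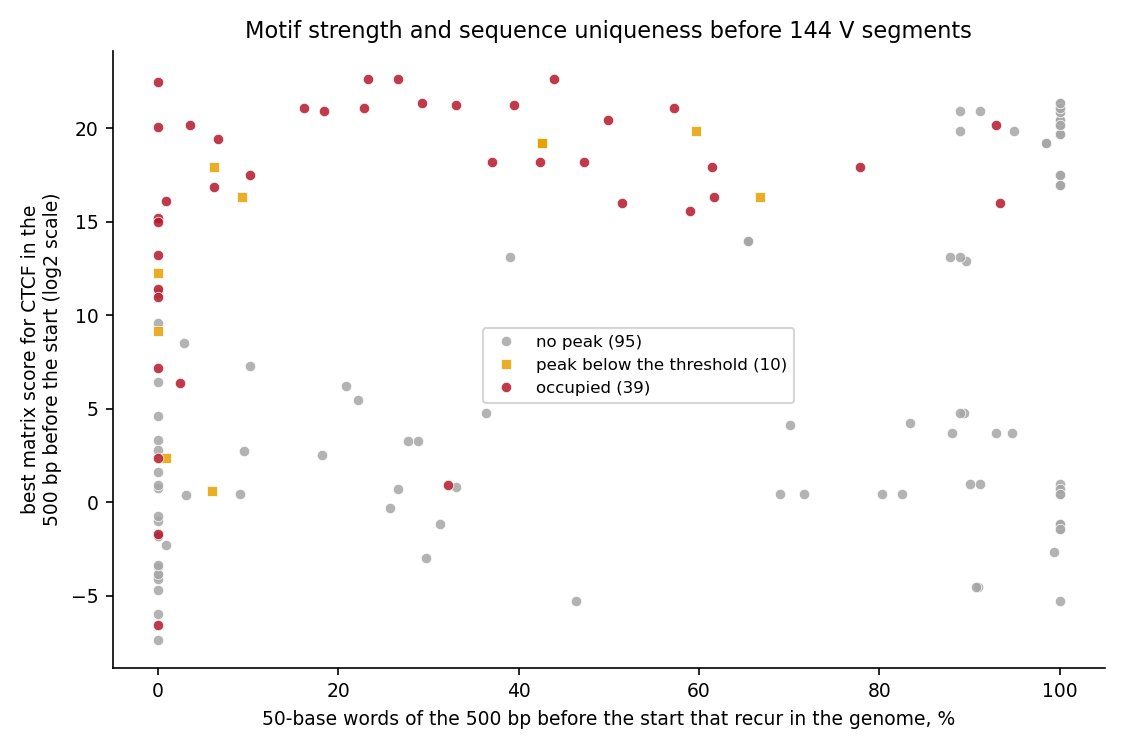
Best score of a 20-base CTCF matrix in the 500 bp before each V segment (y axis, log2 scale) against the share of 50-base words there that recur in the genome (x axis), for 39 occupied members, 10 with a peak below the threshold and 95 without. The 28 V segments at 100% carry no peak.

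**Figure D4:**
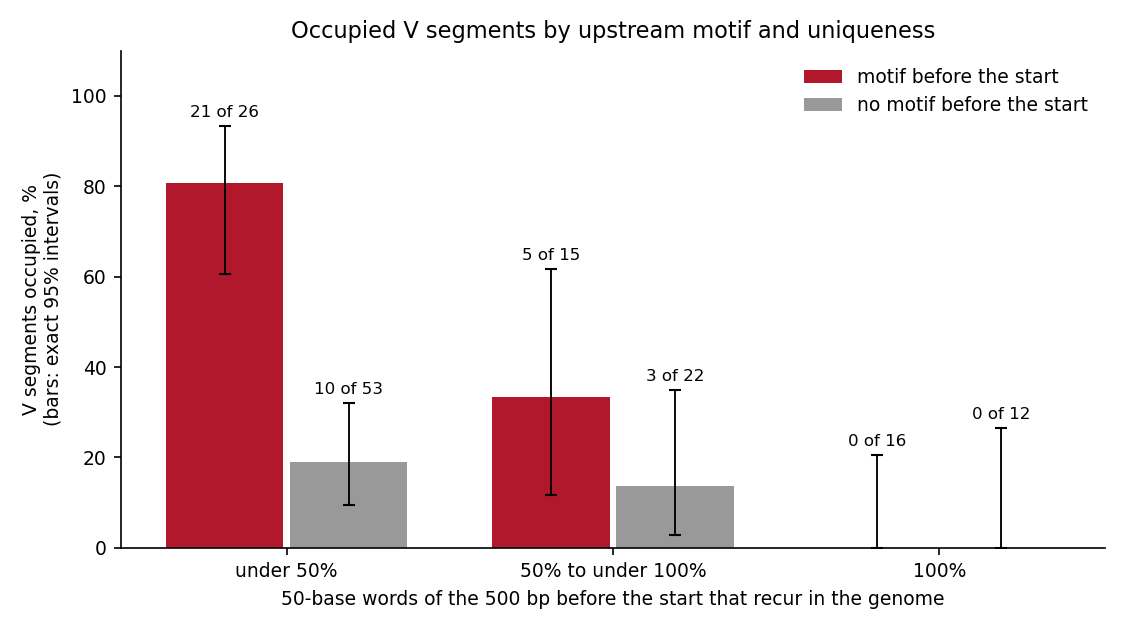
Share of V segments occupied (bars) with exact 95% intervals, by whether the core consensus was found in the 500 bp before the start and by the share of 50-base words there that recur. The share with a motif falls from 21 of 26 to 5 of 15 and 0 of 16.

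Some V segments shared the same 20 bases around the core. There were 19 such groups, holding 55 V segments with a matrix score over 10. In 5 groups every member was occupied, in 7 none and in 7 some. The Trav12 segments formed the largest group, with 7 members. The 3 occupied, Trav12-1, Trav12-2 and Trav12-3, had 16.2%, 57.2% and 22.8% of their upstream words repeated. The 4 unoccupied, Trav12d-1, Trav12d-3, Trav12n-1 and Trav12n-3, had all of theirs repeated. These groups share the motif and not always its surroundings. Over 201 bases compared without gaps, Trav12-1 and Trav12-2 were identical to Trav12-3 at 95% and 83.1%, the 4 unoccupied segments at 73.1% or 58.7%, and Trav6d-6 to Trav6n-6 at 83.6%. An inserted or lost base lowers such a value for all bases beyond it, so low values need not mean many differences. Differences outside the motif and repetition cannot be told apart in such groups.

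Other mixed groups differed in both directions. Trav6d-3 was occupied with 61.6% of its words repeated, while Trav6-2, with the same motif and 69.2% identity, was unoccupied with 9.31% repeated. Its other copy, Trav6-3, was unoccupied with 66.7% repeated and 99.0% identity. Both unoccupied copies had a peak in the ranked list below the threshold, of 35.2 at Trav6-2 and 52.0 at Trav6-3. The signal of Trav6d-3 was 48.7, so this group differed by the IDR threshold and not by the presence of a weak peak. Trav3-3 had 18.4% of its words repeated and Trav3d-3 91.1%, and 96.5% of 201 bases around the core, compared without gaps, were identical. Trav6-7-dv9 (signal 304) had 10.2% repeated, while its copies Trav6d-7 and Trav6n-7, identical at 97.5% of those bases, had 100% repeated and no peak. Repetition did not separate all members: Trav9-4 had 92.9% of its words repeated and a peak of 79.1, and Trav5n-4 93.3% and a peak of 66.1.

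Every upstream match pointed the way the V segment is transcribed. All 57 V segments with a match had it on their own strand and 0 had one on the other strand, occupied and unoccupied members alike. Of the 57, 55 lay in the alpha-delta locus, 2 in the beta locus and 0 in the gamma locus, so this describes mainly alpha-delta segments. Among other genes with matches on 1 strand in the same window, 52.4% had them on the gene's own strand. Among V segments with a summit in the 500 bp before the start and matches on 1 strand within 50 bp of it, 24 of 24 matched their own strand (exact 95% interval 85.8% to 100%). Over all other genes that share was 58.4%. The V segments share ancestry and are not independent cases. The core lay between 39 and 491 bp before the start, with a median of 144 bp.

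Summits were also counted by strand along the loci. From the first to the last V segment of the plus strand, 32 of 34 alpha-delta summits with matches on 1 strand were on the plus strand, and 9 of 9 beta summits. Genome-wide the plus strand held 49.9% of such summits. The minus-strand exceptions of the alpha-delta V part were a summit 2206 bp before Trav17 (signal 692) and one 3121 bp after Trav12-1 (signal 164). A further 2 alpha-delta summits, with signals of 215 and 216, had matches on both strands. With the flanks, 32 of the 71 alpha-delta and 8 of the 21 beta summits had no match.

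In the alpha-delta and beta loci both strands were present beyond the last plus-strand V segment. In the alpha-delta locus 3 summits there had matches on 1 strand, and 2 of them, at Traj42 (49.7) and in Dad1 (797), were on the plus strand. The summit 1954 bp from Traj61, which the annotation types as a J pseudogene, had a minus-strand match and a signal of 552 (280 and 273). In the beta locus the summit 3000 bp before Trbd1 (366, with 196 and 174) and the one 1106 bp after the minus-strand segment Trbv31 (491, with 245.0 and 248) both carried minus-strand matches, and the one near Ephb6 (601) a plus-strand match. The 6 gamma summits with matches on 1 strand all lay in the flanks. Of these, 5 were on the plus strand, and the minus-strand summit lay in Amph (705). From the first to the last plus-strand V segment the gamma locus held 0 such summits, so these counts give no orientation for its V part.

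**Figure D5:**
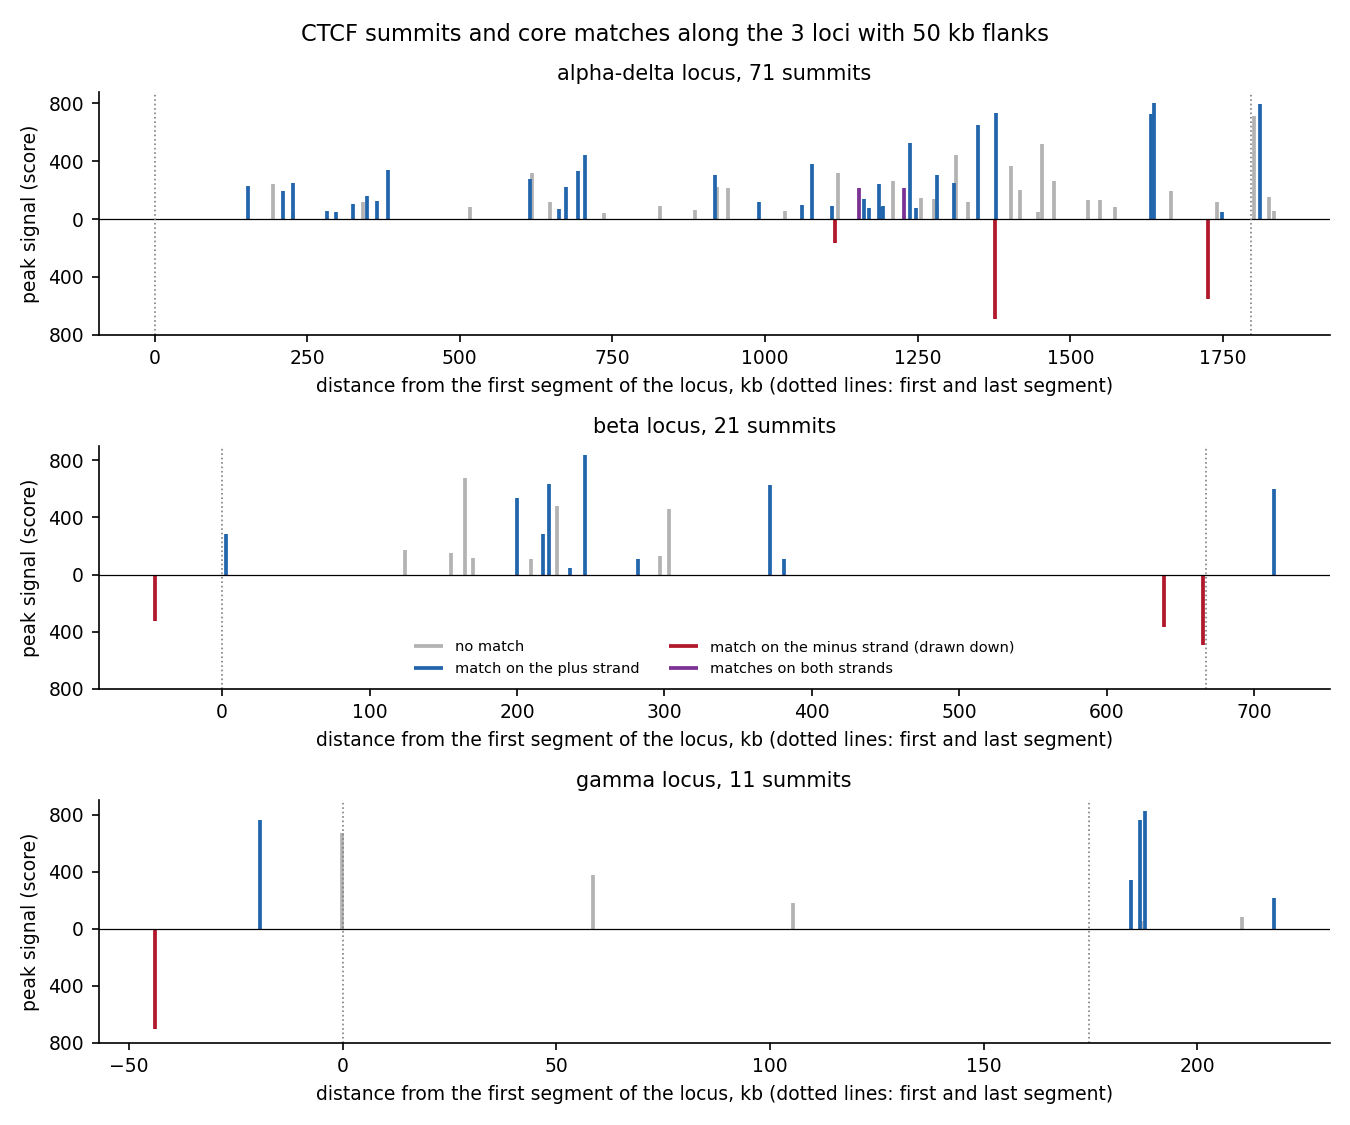
Peak signal of the 103 summits against distance from the first segment of each locus, coloured by the strand of the core match; minus-strand summits are drawn downward. In the V part 32 of 34 alpha-delta and 9 of 9 beta summits with matches on 1 strand were on the plus strand. Beyond it lie minus-strand summits before Traj61 and Trbd1 and plus-strand ones in Dad1 and near Ephb6.

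The 3 loci with their flanks held 71, 21 and 11 summits, at 3.74, 2.74 and 4.0 per 100 kb in the alpha-delta, beta and gamma loci, against 3.43 over the genome. Of these summits 4, 2 and 9 lay in the flanks. The gamma locus itself held only 2, so its density and median signal are mainly those of the flanks. These 2 lay 6280 and 40080 bp from the nearest V segment. The Tcrg-V7 summit, 234 bp before the first gamma segment, was counted in the flank. Of the 103 summits, 41 lay within 1 kb of a V segment, 30 at 1 to 5 kb and 32 farther away. A core match within 50 bp was found at 58 (56.3%, 46.2% to 66.1%), against 50.3% of all summits. The median signal was 192, 325 and 377 in the 3 loci with their flanks.

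The strongest alpha-delta summits lay apart from the V segments. The summit at chr14:54064460-54065004, 10183 bp before the delta segment Trdv4, had a signal of 804 (399 and 408). A summit in Dad1, the gene after the alpha constant region, had 797 (379 and 421), and Trav17 was the third. In the beta locus the strongest were the summit 1560 bp after Trbv14 at chr6:41136924-41137417 with 833 (407 and 431), one 3640 bp before Trbv4 with 673 (313 and 363), and that of Trbv12-1. The strongest gamma summits all lay in the flanks. They were 2 summits in Stard3nl with 827 (400 and 428) and 763 (363 and 400), and one 19321 bp before Tcrg-V7 with 763 (372 and 392).

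Some summits at 1 to 5 kb lay near several copies of a family. Each of the 3 Trav16 copies had a summit 1649 to 1764 bp before its start, with signals of 317 at Trav16d-dv11, 223 at Trav16n and 444 at Trav16. Of the 9 intervals from a Trav13 to the next Trav14 segment, 8 held a summit, with signals of 43.5 to 316 and a median of 121. These summits lay 1829 to 6463 bp before the Trav14 segment, and their best matrix scores ran from -2.70 to 16.7. They are therefore not shown to be copies of 1 site. The intervals measured 3715 to 8496 bp, and the share of such intervals with a summit over the genome was not computed. None of the Trav13, Trav14 or Trav16 members was itself occupied.

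The longest alpha-delta run without a summit measured 134334 bp and reached from the summit of Trav10d to the one after Trav13d-2. It held 14 V segments, Trav10d among them, of which 11 had only repeated words in the 500 bp before the start and 8 had an upstream match. The longest beta run measured 257899 bp, from the summit after Trbv29 to the one before Trbd1. It held Trbv30 and 15 other genes, 6 of them named as trypsin genes (Prss or Try). The longest gamma run was 79168 bp and held Trgv2 and Tcrg-V1. The median spacing of summits was 16642, 12487.5 and 20870.5 bp in the 3 loci with their flanks.

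None of the 8 constant genes had a summit within 1 kb. The nearest summit was 3924 bp from Trac, the alpha constant gene, 4183 bp from Trdc, 8017 bp from Trbc1 and 8233 bp from Trbc2. For the gamma constant genes it was 19541 bp from Tcrg-C1, 21268 bp from Tcrg-C2, 19853 bp from Tcrg-C3 and 9793 bp from Tcrg-C4. None of the 4 D segments had one. Of the 70 J segments 5 did, all alpha: Traj49 and Traj50 shared a summit of 118, and Traj41, Traj42 and Traj43 one of 49.7. Of the 34 V pseudogenes 6 did: Trav9n-1 (224), Trav5-2 (243), Trav8-2 (249), Trdv3 (85.8), Trbv10 (537) and Trbv12-3 (48.1). These were 7.14% of J segments (2.36% to 15.9%) and 17.6% of V pseudogenes (6.76% to 34.5%). The share was 8.08% of windows of 2535 bp and 40.1% of all other genes, so the J share was near that of windows. The median length was 60 bp for J segments and 290.5 bp for V pseudogenes. The 0 of 8 constant genes allows up to 36.9% and the 0 of 4 D segments up to 60.2%.

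Other genes of the loci with a summit within 1 kb were the protein-coding genes Dad1 (797), Abhd4 (155), Ephb6 (601), Amph (705) and Stard3nl (827) and the non-coding or pseudogene entries Gm5408 (161), Gm43647 (131), Gm30275 (197), Mgam2-ps (325), 5830405F06Rik (673), AC153851.1 (537), Gm31887 (669) and Gm42683 (218). Dad1 is an oligosaccharyltransferase subunit, Ephb6 a member of the Eph receptor family and Amph the synaptic protein amphiphysin. The Gm31887 summit is that of Tcrg-V7, which the antisense gene overlaps.

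Genes that act with the T-cell receptor were examined at their transcription start sites. Of a list of 36 receptor partners, signalling, recombination and T-lineage genes, 7 (19.4%) were occupied within 1 kb of a start site, against 38.0% of all protein-coding genes. Among the enzymes that join the cut ends, Lig4, the DNA ligase of the pathway, had a signal of 736 (356 and 382), Xrcc5 of the Ku complex 452 (228 and 222) and Xrcc6 109 (58.1 and 48.8). Among the transcription factors, Bcl11b, needed for T-cell commitment, had 509 (254 and 251), Tcf3 130 (68.4 and 64.6) and Ets1 95.2 (53.7 and 40.1). The kinase gene Fyn had 87.0 (37.6 and 55.0). Cd3d, Cd3e, Cd3g, Cd4, Cd8a, Lck, Rag1 and Rag2 were among the 29 without a summit. So were other members of the classes named above: the end-joining genes Prkdc, Dclre1c, Xrcc4 and Nhej1, and the transcription factors Tcf7, Gata3, Runx1, Runx3, Tcf12, Lef1 and Ikzf1.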

How the data were processed

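Per the labels, CTCF was mapped in 4 libraries of 2 biological replicates. The deposited peak lists carry 2 kinds of score made by the authors, a peak signal of unstated scale and an IDR (irreproducible discovery rate) score of up to 1000. The list used held peaks shared between replicates at an IDR of 0.05, in mm10 coordinates. The aligner, the peak caller and the treatment of reads with several placements are each not given in the sources that were used here. Read depth is unknown.

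Summits were joined to GENCODE M21 genes on chromosomes 1 to 19 and X. Core matches, a 20-base matrix and repeated 50-base words were computed from the genome with numba 0.67.0 and numpy 2.4.6 under Python 3.11.15, tables with pandas 2.3.3 and intervals with scipy 1.17.1. The scripts were tested on simulated data. Exact (Clopper-Pearson) 95% intervals cover counting error only. No test between groups was made, since there was 1 condition. The p-value of a peak was not used. Alternatives were another distance, IDR, peak list, mismatch limit, flank and word length. The word lengths, and the ranked list in the counts by repetition, were added after seeing the data.

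The members and lists were chosen with earlier results of these data known. The text names every occupied V segment, the 3 strongest summits and the longest gap of each locus, other genes of the loci with a summit, constant genes, occupied pathway genes and members next to the 1 kb limit. Families, copies, sequence groups and recurring sites were chosen after their values were seen.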

Additional observations from a re-analysis of the deposited data

How the results depend on the processing

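Of 74 alternative values for 12 results, 67 stayed within the limits set for a change and 7 moved. With summits up to 5 kb away, 77 of 144 V segments were counted, 61 in the alpha-delta and 15 in the beta locus. Without flanks the gamma locus held 2 summits. The share of locus summits with a core match was 17.5% with 0 mismatches and 85.4% with 2 mismatches, beside 10% and 75.7% of all summits. With words of 36 bases, 1 of 17 V segments with a match and only repeated words was occupied. The cause was not tested. Using the peaks of 1 replicate alone gave 34 to 36 occupied V segments, 28 to 30 in the alpha-delta locus, and 91 to 93 summits. Each of these lists lacked 5 of the 39 members, Trav6d-3, Trav5n-4, Trav7-4 and Trav9-4 in both. No paired analysis was possible because the results come from no test and each replicate gave 1 signal per peak. Unknown read depth and placement limit what a missing peak shows.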

Other observations

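In the list made from replicate 1 alone, Trav6-3 and Trav6-4 were occupied, and neither was in the list made from replicate 2 alone. A summit in Stard3nl with a signal of 56.0 had 363 in replicate 1 and 45.8 in replicate 2, a log2 ratio of -3.08 after the median was subtracted. Its replicate 1 value is the same as that of the stronger summit beside it (763).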
